A study of Mus musculus with 11 samples.

Results

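The transcription factor NRF2 (gene Nfe2l2) is the main inducer of antioxidant and detoxifying enzymes, and 9 genes of its pathway were followed in isolated mouse hepatocytes: Nfe2l2 itself, its inhibitor Keap1, and the target genes Nqo1, Gclc, Gclm, Gsr, Txnrd1, Srxn1 and Osgin1. The genes were chosen by name, with no measured value in the rule, although earlier results of these data were known when the list was made. All 9 were found among the 54232 gene identifiers of the count data, and all 9 passed the filter on low counts that left 13303 genes for testing. They were set beside a wider list of 92 other genes of the same pathway, of which Abcc1 and Ggt1 did not pass the filter.

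In unstressed cells, KEAP1 holds NRF2 in the cytoplasm and hands it to a CUL3 ubiquitin ligase for degradation. Oxidants and electrophiles modify KEAP1, after which newly made NRF2 reaches the nucleus, pairs with a small MAF protein and binds antioxidant response elements in its target genes. In the liver, these targets supply glutathione, regenerate reduced thioredoxin and peroxiredoxins, and conjugate or reduce reactive compounds. Much of the control of NRF2 is exerted on the stability of the protein, which RNA counts do not measure.

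The hepatocytes came from adult male C57BL/6 mice carrying floxed Xbp1, the gene of a transcription factor of the unfolded protein response. In Xbp1 LKO mice an albumin promoter-driven Cre recombinase deletes Xbp1 in hepatocytes, whereas Xbp1 fl/fl mice, the controls, carry the floxed alleles without this deletion. For up to 6 weeks, mice of both genotypes ate chow or the HFS (high fat sugar) diet, a Western diet given with fructose and glucose in the drinking water. The 4 groups held 3 libraries of chow-fed Xbp1 fl/fl mice, 2 of chow-fed Xbp1 LKO mice, and 3 of HFS-fed mice of each genotype. Each chow-fed library held the RNA of 1 mouse, whereas 2 mice were pooled into each HFS-fed one. Any effect of diet and of pooling thus cannot be told apart. The fit to all 11 libraries used 1 estimate of spread per gene, shared by the 4 groups. Each of its p-values, also within 1 diet, therefore rests on a mix of the spread between mice on chow and between pools on HFS. RNA was measured over the whole cell population, so a smaller number of cells expressing a gene and a lower amount of its RNA per cell cannot be told apart.

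The antioxidant response element has the core TGACNNNGC, where N is any base, and this 9-letter core was looked for on both strands of the RefSeq promoter windows of GRCm38.p6, which run from 250 bases before to 50 bases after a gene's start. Of the 9 genes, 7 had such a window and 4 of these 7 (57.1%) held the core, against 18 of 79 genes of the wider list (22.8%) and 14.0% of the 27025 genes with a window. The core stood 240 bases before the start of Nfe2l2, 134 bases before that of Gclm, 92 bases before that of 1 of 3 Txnrd1 starts, and after the start of Srxn1. The windows of Keap1, Nqo1 and Osgin1 did not hold these letters. A match describes the letters and says nothing of binding. The following 60-base stretches show the 3 matches that lie before a start, the core in capitals, each read in the direction of its gene.
Nfe2l2, chr2:75704854-75704913, minus strand: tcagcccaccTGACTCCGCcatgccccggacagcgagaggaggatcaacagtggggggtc
Gclm, chr3:122245398-122245457, plus strand: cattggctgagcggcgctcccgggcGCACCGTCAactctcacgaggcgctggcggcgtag
Txnrd1, chr10:82859089-82859148, plus strand: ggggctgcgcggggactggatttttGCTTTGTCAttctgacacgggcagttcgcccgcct
In Nfe2l2 the core lies on the strand of the gene and reads TGACTCCGC. In Gclm and Txnrd1 it lies on the opposite strand, where it reads TGACGGTGC and TGACAAAGC.

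Total counts were 19191032 to 23888401 per library. Counts over all exons of Xbp1 were 194 to 221 CPM (counts scaled to a common library size with TMM factors) in chow-fed Xbp1 fl/fl and 95.7 to 128 CPM in chow-fed Xbp1 LKO hepatocytes, and 242 to 301 against 97.3 to 135 CPM on HFS diet, lower in every Xbp1 LKO library. Since all exons were counted, a transcript lacking only the deleted part would still be counted. The summed level of 12 hepatocyte markers was lower in Xbp1 LKO libraries, 43680 to 76040 against 142500 to 172700 CPM on chow and 58760 to 88570 against 114300 to 131400 CPM on HFS diet. Of these 12 markers, edgeR called 2 lower on chow and 1 lower on HFS diet. The chow-fed Xbp1 LKO replicate 2 stood apart, with Alb, the gene of albumin, at 1.67% of its counts against 3.33% to 10.9% in the other 10 libraries, and with the stress gene Atf3 at 43.0 CPM against 6.53 CPM in the other library of its group. Of 7 cholangiocyte markers, Krt19, Krt7, Epcam and Cftr stayed under 1 CPM in every library, the list summed to 18.4 to 36.5 CPM, and 1 was called lower in Xbp1 LKO on chow. The lists of other liver cells were low throughout but differed between groups. Summed over 9 sinusoidal endothelial markers, levels were 39.7 to 94.6 CPM in chow-fed Xbp1 fl/fl, 24.3 to 30.8 in chow-fed Xbp1 LKO, 76.7 to 130 in HFS-fed Xbp1 fl/fl and 63.3 to 97.0 in HFS-fed Xbp1 LKO libraries. In the same order, 9 macrophage markers summed to 15.8 to 68.4, 16.5 to 26.2, 31.0 to 43.7 and 42.9 to 80.2 CPM, and 8 stellate cell markers to 11.5 to 34.2, 7.25 to 7.91, 20.3 to 34.3 and 23.96 to 50.9 CPM. In Xbp1 LKO hepatocytes, all 3 sums were thus higher on HFS diet without overlap, although edgeR called 0 genes of these 3 lists in any pairwise comparison. The part of these shifts in the results that follow was not tested.

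Levels of different genes were compared per kilobase of exon. In chow-fed Xbp1 fl/fl hepatocytes the order ran from Gclc at 89.0 ± 28.4 CPM per kb (SD, n = 3) and Osgin1 at 67.3 ± 20.7 CPM per kb through Gclm, Gsr and Txnrd1 to Nfe2l2 at 19.9 ± 2.95 CPM per kb. Srxn1 followed at 16.4 ± 3.76, Keap1 at 9.90 ± 1.35 and Nqo1 at 5.69 ± 1.50 CPM per kb. Neighbours in this order lay within their spread for Gclc and Osgin1, for Txnrd1 at 24.1 ± 2.58 and Nfe2l2, and for Nfe2l2 and Srxn1. Gclm at 35.4 ± 4.20 CPM per kb was separated from both of its neighbours by more than their SDs, and Gsr at 27.1 ± 0.427 CPM per kb stood just above Txnrd1, by about the sum of their SDs. In HFS-fed Xbp1 LKO hepatocytes Gclc was again highest, at 98.9 ± 21.4 CPM per kb, and Nfe2l2, at 28.1 ± 2.00 CPM per kb, ranked above Gsr, at 24.5 ± 1.57 CPM per kb, and Txnrd1, at 22.0 ± 2.84 CPM per kb. Gclm (chr3:122245557-122270732, GRCm38) is the member with shared sequence, since 3.92% of its 50-base words occur in other genes. Its exons overlap Gm6061 on the same strand and Gm17494 on the other strand. The exons of Keap1 overlap Gm16754 on the other strand. No member besides Gclm had a shared word.

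The RNA of the activator was higher in Xbp1 LKO than in Xbp1 fl/fl hepatocytes on HFS diet, while that of its inhibitor was not detectably different. Nfe2l2 (ENSMUSG00000015839, chr2:75675513-75704641, minus strand) was at 105, 115 and 100.4 CPM in the 3 HFS-fed Xbp1 LKO libraries and at 73.1, 66.0 and 72.9 CPM in the 3 HFS-fed Xbp1 fl/fl libraries. Every Xbp1 LKO value was above every Xbp1 fl/fl value. The log2 fold change was 0.59 (SE 0.12, 95% interval 0.33 to 0.86), a 1.51-fold higher level, with an adjusted p of 0.0191 by edgeR's quasi-likelihood test. This was the only one of the 9 genes past the threshold of adjusted p 0.05 in this comparison, in which 4.08% of all genes tested were called and 1.92% were called higher. The call was lost, with adjusted p from 0.062 to 0.0914, when HFS-fed Xbp1 fl/fl replicate 1, 2 or 3 or HFS-fed Xbp1 LKO replicate 2 was left out, while the log2 fold change stayed between 0.54 and 0.64 over all 11 such fits.

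On chow the levels of Nfe2l2 overlapped, at 81.2 and 86.9 CPM in Xbp1 LKO and 64.3, 75.2 and 86.7 CPM in Xbp1 fl/fl libraries, with a log2 fold change of 0.16 (95% interval -0.13 to 0.45, adjusted p = 0.576). Both chow-fed Xbp1 LKO libraries were below the 3 HFS-fed ones, and the diet difference in Xbp1 LKO was 0.34 on the log2 scale (SE 0.13, adjusted p = 0.321). The diet difference in Xbp1 fl/fl was -0.09 (adjusted p = 0.903). The test of whether the genotype effect differed between diets gave a log2 difference of 0.44 (95% interval 0.05 to 0.83, unadjusted p = 0.0314, adjusted p = 0.785), so a difference between diets did not pass the threshold.

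Keap1 (chr9:21229730-21239361, minus strand), the adaptor through which NRF2 is degraded, ranged from 39.7 to 52.9 CPM over all 11 libraries. Its log2 fold change between genotypes was 0.12 on chow (95% interval -0.16 to 0.40) and 0.03 on HFS diet (95% interval -0.22 to 0.28). HFS-fed Xbp1 LKO libraries, at 43.1 to 47.7 CPM, were all below the chow-fed ones, at 48.0 and 52.9 CPM, with a log2 difference of -0.16 (adjusted p = 0.628).

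**Figure D1:**
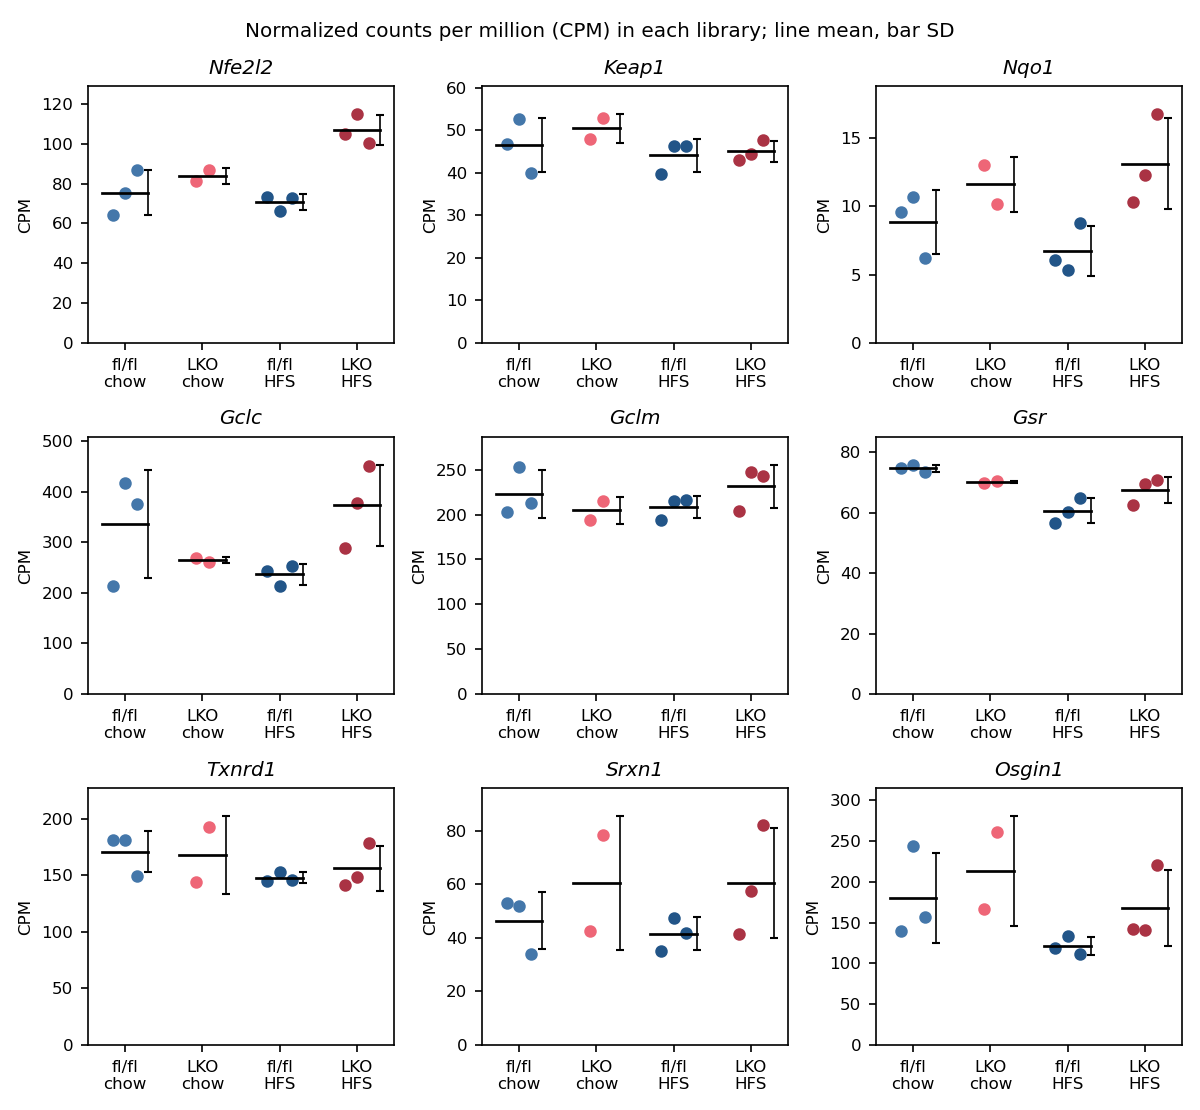
Normalized counts, in CPM (y axis, linear, from 0) of the 9 genes in each library, by genotype and diet (x axis). Points are libraries, horizontal lines group means and bars SD, and in the Nfe2l2 panel the 3 HFS-fed Xbp1 LKO libraries, at 100.4 to 115 CPM, lie above all others.

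Among the target genes, Nqo1 had the largest genotype difference on HFS diet. Nqo1 (chr8:107388225-107403206, minus strand) encodes a quinone reductase that uses 2 electrons per cycle and so avoids reactive semiquinones. It was the least abundant of the 9, with 105 to 438 counts per library. On HFS diet it was at 10.3, 12.3 and 16.8 CPM in Xbp1 LKO and 6.05, 5.35 and 8.82 CPM in Xbp1 fl/fl libraries. The groups did not overlap, and the level was 1.95-fold higher in Xbp1 LKO (log2 0.96, SE 0.26, 95% interval 0.40 to 1.52), but the adjusted p of 0.0621 by edgeR missed the threshold, while DESeq2 gave 0.00957. On chow Nqo1 was at 13.0 and 10.2 CPM in Xbp1 LKO and 9.60, 10.7 and 6.22 CPM in Xbp1 fl/fl libraries, which overlapped (log2 0.39, adjusted p = 0.494).

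Gclc, Gclm and Gsr keep up the pool of reduced glutathione. Gclc (chr9:77754535-77794485, plus strand) is the catalytic subunit of glutamate-cysteine ligase, the rate-limiting enzyme of glutathione synthesis. On HFS diet it was at 289, 378 and 450.4 CPM in Xbp1 LKO and 243, 213 and 253 CPM in Xbp1 fl/fl libraries. All Xbp1 LKO values were higher, with a log2 fold change of 0.66 (SE 0.23) and an adjusted p of 0.147. On chow the sign was the opposite, with 269 and 261 CPM in Xbp1 LKO and 214, 416 and 375 CPM in Xbp1 fl/fl libraries (log2 -0.34, SE 0.26, adjusted p = 0.52). The chow-fed Xbp1 fl/fl libraries spread so widely that both Xbp1 LKO values lay between them. The interaction for Gclc was the largest of the 9, at 1.00 on the log2 scale (95% interval 0.24 to 1.75, unadjusted p = 0.0141), and its adjusted p of 0.721 missed the threshold.

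Gclm, the modifier subunit that makes glutamate-cysteine ligase more efficient, differed little, at 194 to 253 CPM over all libraries. Its genotype difference was -0.12 on chow and 0.15 on HFS diet on the log2 scale, with adjusted p of 0.698 and 0.611. Unlike those of Gclc, its HFS groups overlapped. The difference between the subunits was not tested.

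Gsr (chr8:33652523-33698163, plus strand), glutathione reductase, returns oxidized glutathione to its reduced form with NADPH. It was at 74.6, 75.9 and 73.5 CPM in chow-fed and 56.6, 60.3 and 64.9 CPM in HFS-fed Xbp1 fl/fl libraries. The HFS values were all lower, with a log2 difference of -0.30 (SE 0.09, unadjusted p = 0.00672, adjusted p = 0.304). In Xbp1 LKO libraries it was at 69.9 and 70.3 CPM on chow and 62.7, 69.3 and 70.8 CPM on HFS diet, which overlapped. On chow, both Xbp1 LKO libraries were just below the Xbp1 fl/fl libraries, by 0.09 on the log2 scale (95% interval of the log2 fold change -0.31 to 0.13).

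Txnrd1 and Srxn1 serve the thioredoxin and peroxiredoxin system. Txnrd1 (chr10:82833951-82897712, plus strand), the cytosolic thioredoxin reductase, was at 141 to 193 CPM, and none of its 4 pairwise comparisons was past the threshold, with log2 differences from -0.21 to 0.08. Srxn1 (chr2:152105516-152111376, plus strand), sulfiredoxin, repairs overoxidized peroxiredoxins. It was at 41.5, 57.4 and 82.1 CPM in HFS-fed Xbp1 LKO and 35.1, 47.5 and 41.9 CPM in HFS-fed Xbp1 fl/fl libraries. The lowest Xbp1 LKO library overlapped with the controls, and the log2 fold change was 0.54 (SE 0.28, adjusted p = 0.356). On chow the 2 Xbp1 LKO libraries were far apart for both genes, at 42.7 and 78.2 CPM for Srxn1 and 144 and 193 CPM for Txnrd1. In both cases replicate 2 was the higher one, and without it the log2 fold change of Srxn1 on chow went from 0.39 to -0.12.

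Osgin1 (chr8:119434124-119446256, plus strand) encodes an oxidative stress-induced growth inhibitor. In Xbp1 fl/fl hepatocytes it was at 140, 243 and 157 CPM on chow and 119, 134 and 112 CPM on HFS diet. All HFS values were lower, with a log2 difference of -0.57 (SE 0.25, unadjusted p = 0.0418, adjusted p = 0.532). On HFS diet the Xbp1 LKO libraries, at 142, 141 and 221 CPM, were all above the Xbp1 fl/fl libraries (log2 0.47, SE 0.25, adjusted p = 0.375). On chow Osgin1 was at 166 and 262 CPM in Xbp1 LKO, and the groups overlapped (log2 0.25). Leaving out the higher library, replicate 2, turned this to -0.12.

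The 9 genes had log2 fold changes above 0 between Xbp1 LKO and Xbp1 fl/fl hepatocytes on HFS diet. EdgeR called 1 of the 9 and DESeq2 2 (Nfe2l2 and Nqo1), beside 543 and 1007 of all 13303 genes. Over all genes tested, 51.4% had a positive log2 fold change in this comparison. The median of the 9 was 0.47, beside 0.01 over all genes, and the range was 0.03 for Keap1 to 0.96 for Nqo1. For 4 of the 9 (Nfe2l2, Nqo1, Gclc and Osgin1) every Xbp1 LKO library was above every Xbp1 fl/fl library, and for none was it below, while 13.6% of all genes lay higher and 12.5% lower in this way. The sign was not stable for the smallest values, as Keap1 turned to -0.04 without HFS-fed Xbp1 fl/fl replicate 1 and Txnrd1 to -0.03 without HFS-fed Xbp1 LKO replicate 3. Without the latter library, Osgin1 also went from 0.47 to 0.22, Srxn1 from 0.54 to 0.25, Gclc from 0.66 to 0.50 and Nqo1 from 0.96 to 0.75. Nfe2l2 went the other way, from 0.59 to 0.64. Counts were also simulated from these libraries for this comparison, with 12913 genes in the fit. In them, edgeR called 6 of 98 genes changed by 0.6 on the log2 scale and 56 of 100 changed by 1. Adjusted p-values depend on how many genes change, and fewer were changed there than the 543 called in the measured libraries. Recovery with more changed genes was not tested.

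On chow, 0 of the 9 genes were called between genotypes, against 4.75% of all genes. None had an unadjusted edgeR p under 0.05, beside 2561 of all 13303 genes. DESeq2 also called 0 of the 9. The log2 fold changes ran from -0.34 for Gclc to 0.39 for Nqo1, with 5 above and 4 below 0 and a median of 0.12, beside 0.00 over all genes. Gsr alone was non-overlapping, in the lower direction, and 15.4% of all genes lay higher and 15.9% lower in every Xbp1 LKO library.

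In Xbp1 fl/fl hepatocytes, HFS diet gave log2 differences below 0 for the 9 genes, from -0.08 for Keap1 to -0.57 for Osgin1, with a median of -0.21 beside -0.01 over all genes. Over all genes, 48.8% had a positive difference. None was called by edgeR, against 0.428% of all genes, or by DESeq2, against 181 of all 13303 genes. An unadjusted edgeR p under 0.05 was found for 3 of the 9 (Gclc, Gsr and Osgin1) and 1190 of all genes. Gsr and Osgin1 were lower in every HFS-fed library, which held for 7.34% of all genes, and 6.33% were higher in this way. Keap1 and Gclm turned to 0.02 and 0.01 without chow-fed Xbp1 fl/fl replicate 2, and Nfe2l2 to 0.02 without replicate 3. This comparison and the genotype comparison on HFS diet share the HFS-fed Xbp1 fl/fl libraries, so a low level in those 3 libraries enters both, with opposite sign.

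In Xbp1 LKO hepatocytes, HFS diet gave 4 differences above and 5 below 0, with a median of 0.00. By edgeR 0 of the 9 genes were called, against 0.0601% of all genes, and by DESeq2 also 0. An unadjusted edgeR p under 0.05 was found for 1 of the 9 (Nfe2l2), beside 1683 of all 13303 genes. Nfe2l2 and Gclc were higher and Keap1 was lower in every HFS-fed library, which held for 16.7% and 14.4% of all genes. Gclc was at 269 and 261 CPM on chow and 289 to 450.4 CPM on HFS diet, a log2 difference of 0.49 (SE 0.26, adjusted p = 0.454). For the interaction of genotype and diet edgeR called 0 of the 9 genes and 0.0% of all genes, with 2 of the 9 (Nfe2l2 and Gclc) and 816 of all genes at an unadjusted p under 0.05. DESeq2 called 29 genes, none of them among the 9.

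**Figure D2:**
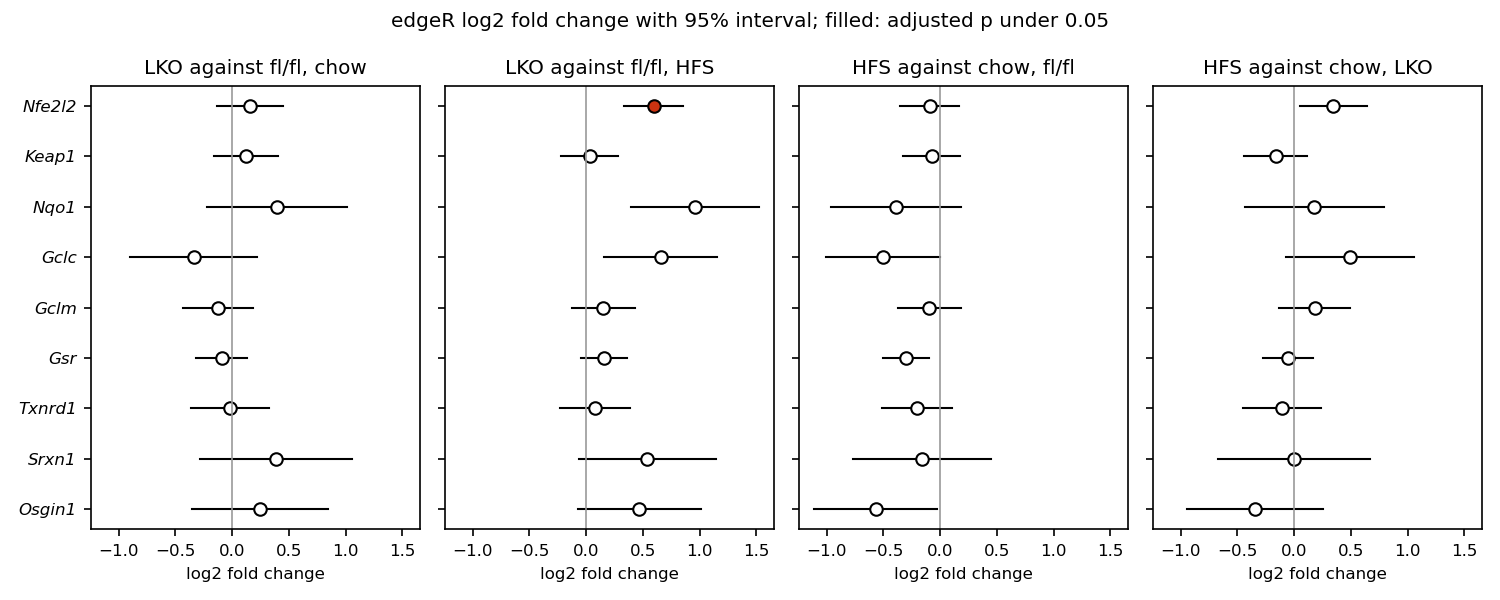
Log2 fold change (x axis) of the 9 genes (y axis) in the 4 pairwise comparisons, with the 95% interval from edgeR as a line and filled points for an adjusted p under 0.05. Nfe2l2 in Xbp1 LKO against Xbp1 fl/fl hepatocytes on HFS diet, at 0.59, is the filled point, and the intervals of Nqo1 and Gclc in the same panel also lie above 0.

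In every group but the HFS-fed Xbp1 fl/fl one, the same library was highest for 7 of the 9 genes. Among HFS-fed Xbp1 fl/fl libraries, replicate 3 was highest for 5, replicate 2 for 3 and replicate 1 for 1. How often a library was highest over all genes was not counted. Within the HFS-fed Xbp1 LKO group, 7 of the 9 were highest in replicate 3 and the other 2 in replicate 2, and none was highest in replicate 1. Replicate 2 was highest for 7 of the 9 in the chow-fed Xbp1 LKO group and for 7 of the 9 among the chow-fed Xbp1 fl/fl libraries. The mean of the 9 genes' standardized log2 CPM was 1.13 SD in HFS-fed Xbp1 LKO replicate 3, 0.91 in chow-fed Xbp1 fl/fl replicate 2 and 0.75 in chow-fed Xbp1 LKO replicate 2. It was lowest in the HFS-fed Xbp1 fl/fl libraries, at -1.15, -0.71 and -0.50, and HFS-fed Xbp1 LKO replicate 1 was at -0.32, above these but below the chow-fed Xbp1 fl/fl replicates 1 and 3 at -0.13 and -0.31. Nfe2l2 did not follow this order, since it was lowest, not highest, in replicate 3 of its HFS-fed Xbp1 LKO group, where Keap1, Nqo1, Gclc, Gsr, Txnrd1, Srxn1 and Osgin1 were highest.

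**Figure D3:**
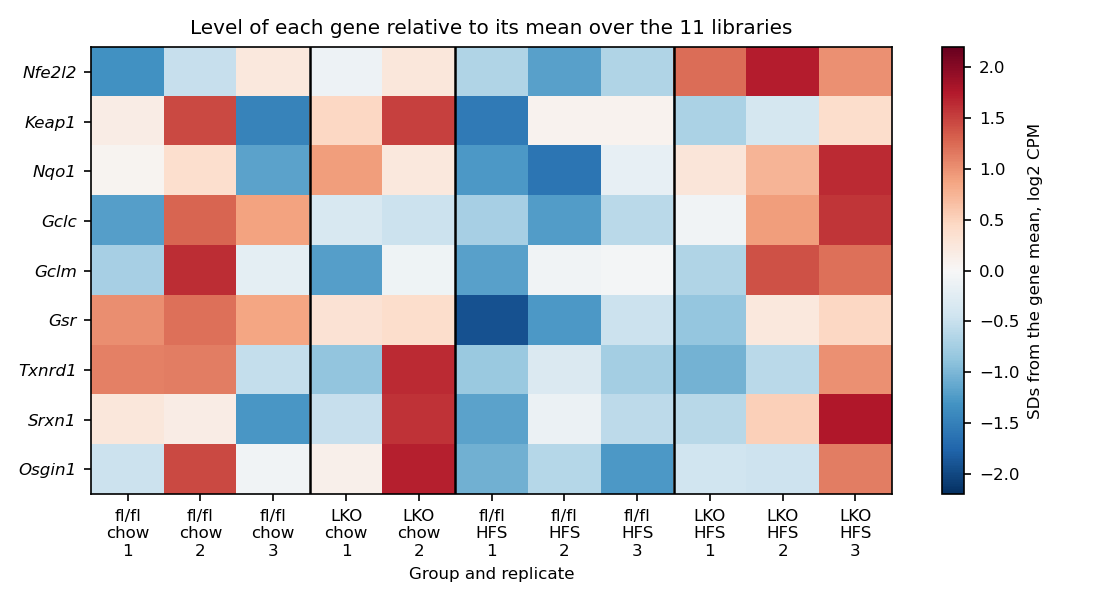
Level of each of the 9 genes (rows) in each of the 11 libraries (columns, by group and replicate) as the distance from the gene's mean over all libraries, in SDs of log2 CPM (red higher, blue lower). HFS-fed Xbp1 fl/fl libraries are mostly blue, with mean values of -1.15 to -0.50, and HFS-fed Xbp1 LKO replicate 3 is red for all genes, with a mean of 1.13.

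Over all 11 libraries, the genes whose log2 CPM most closely followed this mean were Gm34934 (Pearson r = 0.92), Bad (0.90), Pgd (0.90), Kpnb1 (0.88) and Arpp19 (0.88). Bad promotes apoptosis, Pgd makes NADPH in the pentose phosphate pathway, Kpnb1 imports proteins into the nucleus and Arpp19 inhibits a phosphatase in mitosis. These are descriptions over libraries that share groups and normalization. Pgd is also in the wider list. It was at 38.2, 43.5 and 49.8 CPM in HFS-fed Xbp1 LKO and 33.3, 37.4 and 36.1 CPM in HFS-fed Xbp1 fl/fl libraries, with no overlap and an adjusted p of 0.318.

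Of the 90 genes of the wider list that were tested, edgeR called 5 between genotypes on HFS diet, where 4.08% of all genes were called, so the count was near that of all genes. Aldh1a1, Cbr3 and Gstm3 were higher, and Blvra and Ces1g lower, in Xbp1 LKO hepatocytes. DESeq2 called 16 higher and 3 lower, beside 464 and 543 of all 13303 genes. With library totals edgeR called 32 higher and 2 lower, beside 1288 and 195 of all genes. Without HFS-fed Xbp1 LKO replicate 1 edgeR called 10 higher and 3 lower, beside 236 and 296 of all 13174 genes tested then. Of the 90, 57 had a positive log2 fold change and the median was 0.16. Without overlap, 34 were higher and 8 lower, beside 13.6% and 12.5% of all genes. By role, those higher without overlap were 8 of 20 genes of glutathione synthesis and use, 9 of 15 of quinone, aldehyde and xenobiotic metabolism and 4 of 8 of cysteine supply. Regulators of NRF2 had 5 of 13, thioredoxin and peroxiredoxin genes 4 of 12, NADPH supply 2 of 8 and heme and iron 2 of 7. Superoxide and peroxide removal had 0 of 4 and export transporters 0 of 3. Lower without overlap were 2 genes of heme and iron and 2 of cysteine supply. Glutathione synthesis and use, thioredoxin and peroxiredoxin, NADPH supply, and quinone, aldehyde and xenobiotic metabolism had 1 each, and the other roles 0. Differences between roles were not tested.

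Aldh1a1, a retinal and aldehyde dehydrogenase, was at 2343, 3038 and 3168 CPM in HFS-fed Xbp1 LKO and 1090.0, 1215 and 1597 CPM in HFS-fed Xbp1 fl/fl libraries (log2 1.13, SE 0.18, adjusted p = 0.00631). Gstm3, a glutathione transferase, was at 105, 113 and 189 CPM against 33.5, 25.2 and 15.8 CPM (log2 2.45, SE 0.32, adjusted p = 0.0027). Cbr3, a carbonyl reductase, had 33, 112 and 337 counts against 3, 5 and 1 counts, so its log2 fold change of 5.33 (SE 0.92, adjusted p = 0.0094) rests on few counts in the controls. Cbr3 also passed the filter only through Xbp1 LKO libraries, so its higher level there was in part fixed by the filter. Among the HFS-fed Xbp1 LKO libraries Cbr3 ranged from 1.34 to 12.9 CPM and was highest in replicate 3, as were 7 of the 9 genes. Blvra, biliverdin reductase, fell by 1.00 on the log2 scale on HFS diet (adjusted p = 0.00277) and fell by 1.28 on chow (adjusted p = 0.00254). Ces1g, a carboxylesterase of lipid and drug metabolism, fell by 2.61 on HFS diet (adjusted p = 0.00781) and fell by 3.49 on chow (adjusted p = 0.00532). The Gst, Ces1 and Aldh1a genes belong to families of close copies between which reads may have been divided, so their values are uncertain.

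On chow, edgeR called 8 of the 90 between genotypes, 4 in each direction, beside 4.75% of all genes. DESeq2 called 8 in each direction, beside 422 higher and 708 lower of all 13303 genes. With library totals edgeR called 19 higher and 4 lower, beside 2685 and 315 of all genes. Higher in Xbp1 LKO were Abcc4, an export pump (log2 3.42, adjusted p = 0.0475), and Akr1b3, aldose reductase (1.73, adjusted p = 0.0141). Abcc4 had 96 and 264 counts in Xbp1 LKO and 21, 11 and 8 in Xbp1 fl/fl libraries. Akr1b3 had 59 and 49 against 16, 7 and 16, so both rest on few counts in the controls. Also higher were Gpx3, the secreted glutathione peroxidase, and Slc3a2, the heavy chain of amino acid exchangers (1.08, adjusted p = 0.0321). Gpx3 had 58 and 118 counts in Xbp1 LKO and 9, 1 and 1 counts in Xbp1 fl/fl libraries, so its log2 fold change of 4.22 (adjusted p = 0.0154) rests on few counts in the controls. Gpx3 also passed the filter only through Xbp1 LKO libraries, so its higher level there was in part fixed by the filter. Besides Blvra and Ces1g, Gstp1, the pi class glutathione transferase, fell by 1.25 (adjusted p = 0.0184) and Prdx4, the peroxiredoxin of the endoplasmic reticulum, fell by 1.26 (adjusted p = 0.0055). Without chow-fed Xbp1 LKO replicate 2 the count was 1, Blvra, and without chow-fed Xbp1 fl/fl replicate 2 it was 4. The median over the 90 was -0.01, with 17 higher and 16 lower without overlap, beside 15.4% and 15.9% of all genes. Those higher include Gpx2, Gpx3 and Cbr3, which passed the filter only through Xbp1 LKO libraries.

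**Figure D4:**
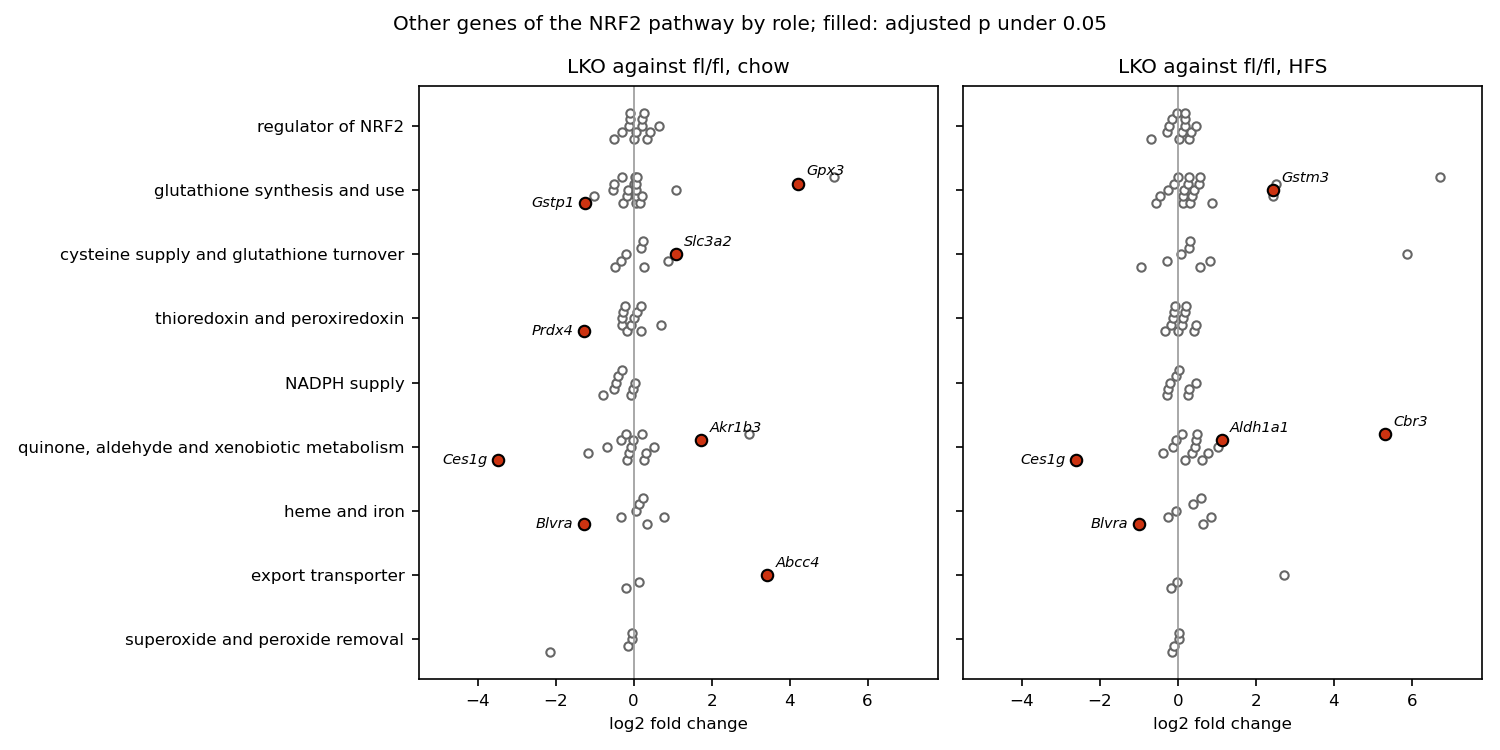
Log2 fold change (x axis) between Xbp1 LKO and Xbp1 fl/fl hepatocytes of the 90 other NRF2 pathway genes tested, by role (y axis), on chow (left) and HFS diet (right). Each point is a gene, and the filled, named points have an edgeR adjusted p under 0.05, 8 on chow and 5 on HFS diet.

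The diet comparison in Xbp1 fl/fl hepatocytes called 1 of the 90 by edgeR, beside 0.428% of all genes, and 5 by DESeq2, beside 181 of all 13303 genes. Ugdh, which makes UDP-glucuronate for glucuronidation, was at 214, 282 and 265 CPM on chow and 132, 134 and 129 CPM on HFS diet, and fell by 0.95 on the log2 scale (SE 0.16, adjusted p = 0.0333). Without any 1 of chow-fed replicates 2 and 3 or HFS-fed replicates 1 to 3 of Xbp1 fl/fl, the comparison called 0 of the 90. Of the 90, 68 had a difference below 0, the median was -0.16, and 22 were lower and 5 higher without overlap, beside 7.34% and 6.33% of all genes. By role, differences below 0 were found for 8 of 8 genes of NADPH supply, 17 of 20 of glutathione synthesis and use and 7 of 8 of cysteine supply. The thioredoxin and peroxiredoxin genes had 9 of 12, quinone, aldehyde and xenobiotic metabolism 10 of 15 and regulators of NRF2 8 of 13. Heme and iron had 5 of 7, superoxide and peroxide removal 3 of 4 and export transporters 1 of 3. Over all genes, 6798 of 13303 lay below 0. In Xbp1 LKO hepatocytes 0 of the 90 were called by edgeR, beside 0.0601% of all genes, and DESeq2 called 1, Ugdh, beside 213 of all genes. There, 15 of the 90 and 1683 of all 13303 genes had an unadjusted edgeR p under 0.05. In the interaction edgeR called 0 of the 90, and DESeq2 called 1, beside 29 of all genes. An unadjusted edgeR p under 0.05 was found for 11 of the 90 and 816 of all genes.

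Other well-known genes of the pathway, Hmox1, Slc7a11, Gss and Me1, were not called by edgeR in any comparison when fitted to all 11 libraries with the filter and TMM factors. In the genotype comparison on HFS diet, however, DESeq2 called Gss higher, edgeR without a filter called Hmox1, Slc7a11 and Me1 higher, and edgeR with library totals called all 4. Over all genes, DESeq2 called 464 higher and 543 lower of 13303, and edgeR without a filter 734 and 704 of 26016. With library totals edgeR called 1288 higher and 195 lower of 13303, and the median log2 fold change of all genes was 0.27. Hmox1, heme oxygenase, was at 12.6, 11.2 and 8.93 CPM in HFS-fed Xbp1 LKO and 6.67, 5.55 and 5.98 CPM in HFS-fed Xbp1 fl/fl libraries, with no overlap (log2 0.84, adjusted p = 0.133). On chow it was at 10.4 to 11.7 CPM in Xbp1 fl/fl libraries and at 10.7 and 27.7 CPM in Xbp1 LKO libraries, the higher one being replicate 2. Slc7a11, the cystine importer, had 2, 11 and 13 counts in HFS-fed Xbp1 LKO libraries, 0 in each HFS-fed Xbp1 fl/fl library and 0 or 1 on chow, with an adjusted p of 0.0588 on HFS diet. It reached 10 counts only in HFS-fed Xbp1 LKO libraries, so it passed the filter only through the group where it is high. Its higher level there was thus in part fixed by the filter. Gss, which completes glutathione synthesis, was at 71.0, 78.5 and 92.6 CPM in HFS-fed Xbp1 LKO and 55.5, 64.2 and 62.2 CPM in HFS-fed Xbp1 fl/fl libraries, also with no overlap (log2 0.41, adjusted p = 0.0716). Me1, malic enzyme, a source of NADPH, did not overlap either (log2 0.46, adjusted p = 0.203).

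Among regulators of NRF2, edgeR called 0 of 13 in either genotype comparison, beside 4.75% of all genes on chow and 4.08% on HFS diet. At an unadjusted edgeR p under 0.05 were 1 of the 13 on chow and 2 on HFS diet, beside 2561 and 2322 of all 13303 genes. DESeq2 called Mafk, a small MAF partner, on chow, where edgeR gave a log2 fold change of 0.66 (adjusted p = 0.058) with no overlap, and Rbx1, a subunit of the CUL3 ligase, on HFS diet. These genes are named because DESeq2 called them. Mafg, another small MAF partner, and Bach1, which competes for the same elements, had log2 fold changes of 0.04 and -0.23 on HFS diet (adjusted p of 0.911 and 0.557). Sqstm1, which binds KEAP1, was at 438 to 453 CPM in HFS-fed Xbp1 LKO and 390 to 397 CPM in HFS-fed Xbp1 fl/fl libraries (log2 0.18, adjusted p = 0.683), and at 837 CPM in chow-fed Xbp1 LKO replicate 2. Syvn1, a ubiquitin ligase of the endoplasmic reticulum that can act on NRF2, was at 72.7 to 125 CPM against 80.5 to 200.4 CPM (log2 -0.68, adjusted p = 0.388). Txn1, thioredoxin, and G6pdx, the entry enzyme of the pentose phosphate pathway, had log2 fold changes of 0.13 and -0.28 on HFS diet (adjusted p of 0.641 and 0.691). Nnt, the mitochondrial transhydrogenase, had 9 to 30 counts in every library, with log2 fold changes between genotypes of -0.80 on chow and 0.26 on HFS diet (adjusted p of 0.429 and 0.841).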

How the data were processed

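RNA of isolated hepatocytes was sequenced as single-end reads of 50 bases. The authors deposited whole-number counts per Ensembl gene, 1 table per library, not normalized. The study's methods name kallisto and tximport, whereas the submitters' processing notes name cutadapt 1.13, STAR, HTSeq 0.6.1p1, DESeq2 and build mm10. How reads shared between genes were treated is not given in the sources used here. Of 54232 identifiers, 54165 were found in GENCODE M21 (GRCm38), which gave symbols and positions. The labels gave each library's group.

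From the counts, edgeR 4.0.16 in R 4.3.3 kept the genes that filterByExpr passes at a minimum count of 10, computed TMM factors, CPM and a quasi-likelihood fit of the 4 groups to all 11 libraries, with Benjamini-Hochberg adjustment over all genes tested and a threshold of 0.05. The 5 contrasts compared genotypes within chow and within HFS diet, diets within Xbp1 fl/fl and within Xbp1 LKO, and the genotype effects between diets. Non-overlap means that every library of a group lies above or below every library of the other in CPM. Likeness to the 9 genes is Pearson's r with their mean standardized log2 CPM (prior count 2).

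The members and lists were chosen with earlier results of these data known. Named are the 9 members, genes of the wider list past the threshold, 12 more of it fixed by name, the 5 most alike genes, Xbp1 and the marker genes, and Chac1, Gpx2, Gsta1, Mafk and Rbx1 after their values were seen. Alternatives were RLE size factors, library totals, DESeq2 1.42.0, 2 other filters, fits of the compared groups alone, replicate blocks and each library left out. Counts were simulated for the HFS genotype comparison (12913 genes in the fit). There, edgeR recovered 56 of 100 genes changed by 1 on the log2 scale with 3 false calls, and DESeq2 73 of 100 with 28 false calls. Recovery with more changed genes was not tested. Chi-square per degree of freedom between 2 replicates was 27.9 to 102, far above counting error, so none was a repeated library and counting intervals are not given.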

Additional observations from a re-analysis of the deposited data

Results flagged for a closer look

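Genotype or diet effects of opposite direction, with no overlap between the libraries in either comparison, were found for 3 genes of the wider list, and in each case the interaction was tested with edgeR and missed the threshold. Prdx1, a cytosolic peroxiredoxin, was lower in Xbp1 LKO on chow (539.5 and 497 against 562.5 to 672 CPM) and higher on HFS diet (565, 584 and 697 against 511 to 557 CPM). The genotype effects differed by 0.42 on the log2 scale, as did the diet effects, which were -0.17 in Xbp1 fl/fl and 0.25 in Xbp1 LKO (unadjusted p = 0.0531, adjusted p = 0.812).

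Chac1, which degrades glutathione and is induced in the unfolded protein response, was named after its values were seen. It was at 9.002 and 13.8 CPM in Xbp1 LKO and 6.23, 8.03 and 4.23 CPM in Xbp1 fl/fl libraries on chow, but at 9.33, 6.25 and 6.17 CPM in Xbp1 LKO and 11.6, 16.0 and 13.9 CPM in Xbp1 fl/fl libraries on HFS diet. The genotype effects were 0.89 and -0.93, a log2 difference of -1.82 (SE 0.38, unadjusted p = 0.000539, adjusted p = 0.603), which DESeq2 called.

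Gsta1, an alpha class glutathione transferase with close copies, was also named after its values were seen. It had 8, 49 and 22 counts on chow and 3, 3 and 5 counts on HFS diet in Xbp1 fl/fl libraries, and 18 and 15 counts on chow and 23, 31 and 24 counts on HFS diet in Xbp1 LKO libraries. The diet effects differed by 3.46 on the log2 scale (SE 0.89, unadjusted p = 0.00234, adjusted p = 0.631), on few counts.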

How the results depend on the processing

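Of 846 values of single genes under the alternatives, 797 kept their direction and side of the threshold. Library totals shifted the median of all genes by 0.33 in the genotype comparison on chow and 0.27 on HFS diet, and moved the split of calls on chow from 230 higher and 402 lower to 2685 and 315, and on HFS diet from 256 and 287 to 1288 and 195. On chow, library totals turned Gclm from -0.12 to 0.21, Gsr from -0.09 to 0.24 and Txnrd1 from -0.02 to 0.32. These changes were about as large as the shift of all genes on chow. Txnrd1 on chow without a filter (0.0035) and Srxn1 for diet in Xbp1 LKO with 1 CPM in 2 libraries (0.0048) also changed sign. Members called on HFS diet were 4 with library totals (Nfe2l2, Nqo1, Gclc and Gsr), 2 with DESeq2 (Nfe2l2 and Nqo1) and 4 without a filter (Nfe2l2, Nqo1, Gclc and Srxn1), and on chow 2 with library totals (Keap1 and Nfe2l2). Without a filter 1 was called for diet in Xbp1 fl/fl (Osgin1) and 1 in the interaction (Gclc). Genes of the wider list called between genotypes on chow numbered 23 with library totals, 16 with DESeq2, 16 without a filter and 5 with the file-number block, and on HFS diet 34, 19, 25 and, in a fit of the compared groups alone, 11. For diet in Xbp1 fl/fl they numbered 2 with library totals, 5 with DESeq2, 15 without a filter and 2 with the groups alone, in Xbp1 LKO 1 with DESeq2 and 13 without a filter, and in the interaction 1 and 4. Over all genes the calls on chow were 632, against 1130 with DESeq2, 1507 without a filter, 233 with the groups alone and 69 without Xbp1 LKO replicate 2, and on HFS diet 543, against 1007 and 1438 with DESeq2 and without a filter and 184 without Xbp1 LKO replicate 2. For diet they were 57 in Xbp1 fl/fl, against 181 with DESeq2 and 499 without a filter, and 8 in Xbp1 LKO, against 213 and 722, 19 and 53 with the blocks and 0 with the groups alone. The cause of these changes was not tested.

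Leaving out each library in turn gave 0 to 2 members called on HFS diet and 0 in the other comparisons, and for the wider list 1 to 11 on chow, 4 to 13 on HFS diet, 0 to 3 for diet in Xbp1 fl/fl and 0 to 2 in Xbp1 LKO. On chow, Txnrd1 ranged from -0.25 to 0.17, Srxn1 from -0.12 to 0.76 and Osgin1 from -0.12 to 0.54. On HFS diet, Keap1 ranged from -0.041 to 0.067 and Txnrd1 from -0.030 to 0.15. For diet in Xbp1 fl/fl, Keap1 ranged from -0.17 to 0.025, Gclm from -0.16 to 0.0061 and Nfe2l2 from -0.20 to 0.019. For diet in Xbp1 LKO, Txnrd1 ranged from -0.31 to 0.13, Srxn1 from -0.38 to 0.51, Osgin1 from -0.64 to 0.023, Gsr from -0.087 to 0.0053 and Nqo1 from -0.038 to 0.36. In the interaction, Osgin1 ranged from -0.076 to 0.58, Keap1 from -0.19 to 0.0076, Txnrd1 from -0.10 to 0.33 and Srxn1 from -0.22 to 0.66. Where a chow-fed Xbp1 LKO library was left out, the lone one was assumed to vary like the other groups.

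Same-numbered libraries deviated together weakly at most (correlations of -0.20 to 0.23, 4 of 15 pairs over 0.1). By file number, in which chow-fed Xbp1 LKO replicate 2 is 3, correlations were -0.20 to 0.25, also with 4 of 15 over 0.1. These deviations are from means of 2 or 3 libraries, so they cannot decide whether the numbers pair the samples. The main fit used no pairing. With the replicate block, Nfe2l2 on HFS diet stayed called (log2 0.59, adjusted p = 0.0395), and 1 member and 7 genes of the wider list were called in that comparison.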
